A study of Mus musculus with 6 samples.

Results

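The genes described here bear names given to parts and assembly factors of motile cilia and flagella. Which of them act in the ventricle lining was not tested. They were chosen by symbol from the protein-coding genes of the GENCODE M21 annotation (mouse build GRCm38): every symbol that starts with Dnah, Dnaic, Dnaaf, Cfap, Rsph, Tekt or Drc, and Wdr63. This gave 69 genes of the 21951 protein-coding genes, and 67 of them had at least 1 entry in the deposited event lists, which held 16154 genes in all. Cfap97d1 and Cfap99 had none. The 67 genes carried 683 of 133207 different events.

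The RNA came from the nucleus accumbens (NAc), part of the ventral striatum and of the reward circuit. It was taken from adult male C57BL/6N mice after conditioned place preference (CPP) training, by which a mouse comes to prefer the compartment where it was given a drug. The morphine group received morphine in one compartment and saline in the other, and the saline group received saline only. There were 3 libraries per group, and the series text and the paper differ on whether the tissue of several mice was pooled in a library. P-values below weigh a difference against the spread between these libraries. Most genes that passed had no such spread within either group, as given below. For each library the authors had deposited a list of events: the starts and ends of the assembled transcripts, skipped exons, retained introns and alternative exon ends. An assembled transcript with 1 start and 1 end has at least 2 events, and any further event means another start, another end or a splicing difference between 2 assembled transcripts. The lists held no usable expression level, so all values are numbers of events or of exons.

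A motile cilium holds a ring of microtubule doublets around a central pair. Dynein arms on the doublets pull neighbouring doublets past each other, with outer arms setting mainly the beat frequency and inner arms the waveform. Radial spokes pass signals from the central pair to the arms, the nexin-dynein regulatory complex links neighbouring doublets, and tektins run inside the doublet wall. In the brain, motile cilia stand on the ependymal cells that line the ventricles and move cerebrospinal fluid, while neurons and astrocytes carry a single primary cilium without dynein arms.

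All 12 ependymal markers checked, among them Foxj1, the transcription factor of the motile cilia programme, and Tmem212, Ccdc153, Sntn and Rarres2, were listed in all 6 libraries. The same held for all 8 markers of medium spiny neurons, the main neurons of the NAc. Of 12 markers of the choroid plexus, a secretory tissue inside the ventricles, 7 were listed in all 6 libraries, and Aqp1 and Slc4a5 were listed in none. As these are whole-tissue libraries, fewer cells of a type and less RNA per cell cannot be told apart.

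The libraries held 54750 to 62313 events, 54750 to 58281 in the saline and 56969 to 62313 in the morphine group. Relative depth, recovered from counts and FPKM values in the series' lncRNA table, was 1, 1.07 and 1.37 in saline libraries 1 to 3 and 1.20, 1.59 and 1.29 in morphine libraries 1 to 3. Saline library 1 and morphine library 1 carried the most intron retention of their groups over all genes, with 7975 and 9604 events against 5473 to 7359 in the other 4 libraries.

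More of the motile cilia genes were listed in the morphine libraries. In the saline group 60, 59 and 58 of the 69 genes were listed (59 ± 1, SD, n = 3), and in the morphine group 63, 65 and 64 (64 ± 1). The groups did not overlap. Over all genes, 14243, 14391 and 14791 genes were listed in the saline and 14483, 14956 and 14639 in the morphine libraries, which did overlap. Saline library 3, at a relative depth of 1.37, listed 58 of the motile cilia genes, while morphine library 1, at 1.20, listed 63. The part of depth in the difference was not tested. In all 6 libraries, 51 of the 69 genes were listed (73.9%), against 59.5% of all protein-coding genes.

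The number of events of these genes was also higher in the morphine libraries. The saline libraries held 202, 150 and 162 events of motile cilia genes (171.3 ± 27.2, SD, n = 3) and the morphine libraries 231, 251 and 212 (231.3 ± 19.5), a ratio of means of 1.35. The groups did not overlap, and they did not overlap when any 1 of the 67 genes was left out (ratios 1.32 to 1.37). Over all genes the ratio was 1.06 and the groups overlapped. As a share of all events of a library, the motile cilia genes took 0.274% to 0.347% in the saline and 0.371% to 0.414% in the morphine group. A sum over a chosen list was given no p-value.

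**Figure D1:**
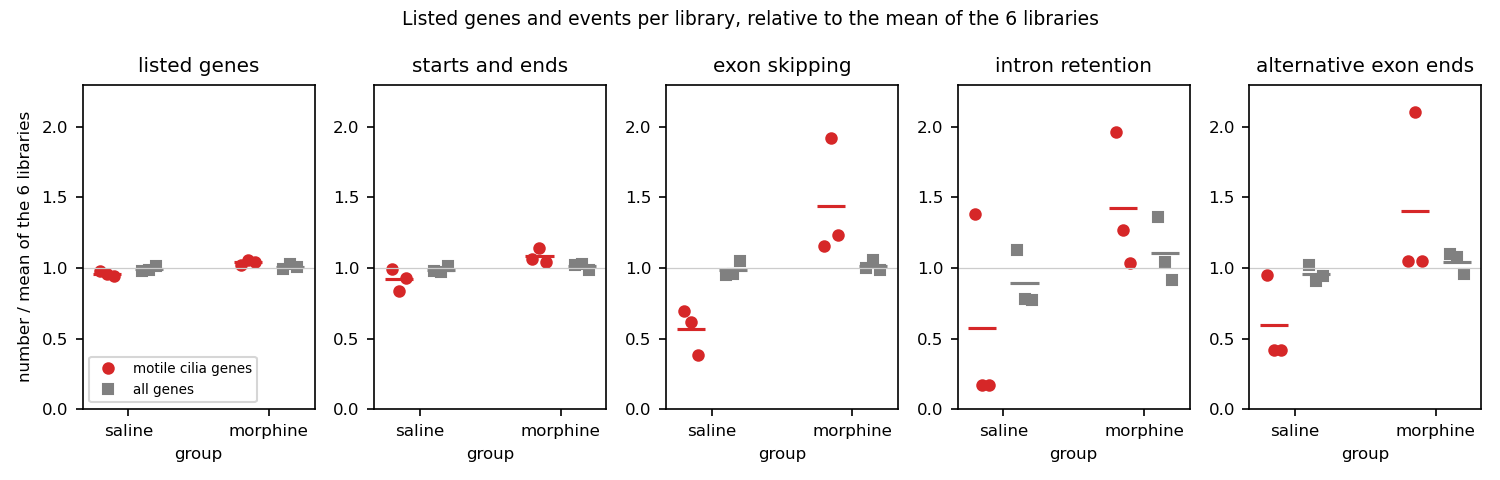
Number of listed genes and of events per library for the motile cilia genes (red circles) and all genes (grey squares), each divided by its mean over the 6 libraries (y axis, from 0), in the saline and morphine groups (x axis); short lines are group means, n = 3 per group. Exon skipping of the motile cilia genes does not overlap between the groups (5 to 9 against 15 to 25 events), while over all genes it overlaps.

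The difference was spread over the families of events. Starts and ends of transcripts numbered 160, 135 and 150 in the saline and 172, 184 and 168 in the morphine libraries. Exon skipping events numbered 9, 8 and 5 against 15, 25 and 16, so the lowest morphine library exceeded the highest saline library (7.33 ± 2.08 against 18.7 ± 5.51, SD, n = 3). The groups stayed apart when any 1 of the 26 genes with a skipping event was left out. Over all genes, skipping events overlapped between the groups (5905 ± 336 against 6077 ± 209).

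Intron retention of the motile cilia genes numbered 24, 3 and 3 events in the saline and 34, 22 and 18 in the morphine libraries, and the groups overlapped through saline library 1. That library and morphine library 1 were also the highest of their groups in retention over all genes. Retention over all genes numbered 7975, 5490 and 5473 in the saline and 9604, 7359 and 6483 in the morphine libraries. These groups overlapped through saline library 1 too, with a ratio of means of 1.24, beside 2.47 for the motile cilia genes. Dnah1 alone gave 15 of the 24 events of saline library 1 and 19 of the 34 of morphine library 1. Without Dnah1 the numbers were 9, 3 and 1 against 15, 18 and 15, which did not overlap, while with any 1 of the other 14 genes left out the groups still overlapped. Alternative exon ends numbered 9, 4 and 4 against 10, 20 and 10. Their groups were parted by 1 event and overlapped when any 1 of 6 genes was left out (Cfap44, Cfap54, Cfap74, Dnah1, Dnaic1 or Rsph3a), and stayed apart in 5 of the 11 cases.

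Splicing events were found in 29 of the 67 genes, and the other 38 had starts and ends only. In the saline libraries 5 to 12 of these genes had a splicing event, against 15 to 20 in the morphine libraries. As a share of the motile cilia genes listed, this was 20%, 15.3% and 8.62% in the saline and 23.8%, 30.8% and 31.2% in the morphine group. Among all listed protein-coding genes the share was 34.5% to 37.7% in every library.

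**Figure D2:**
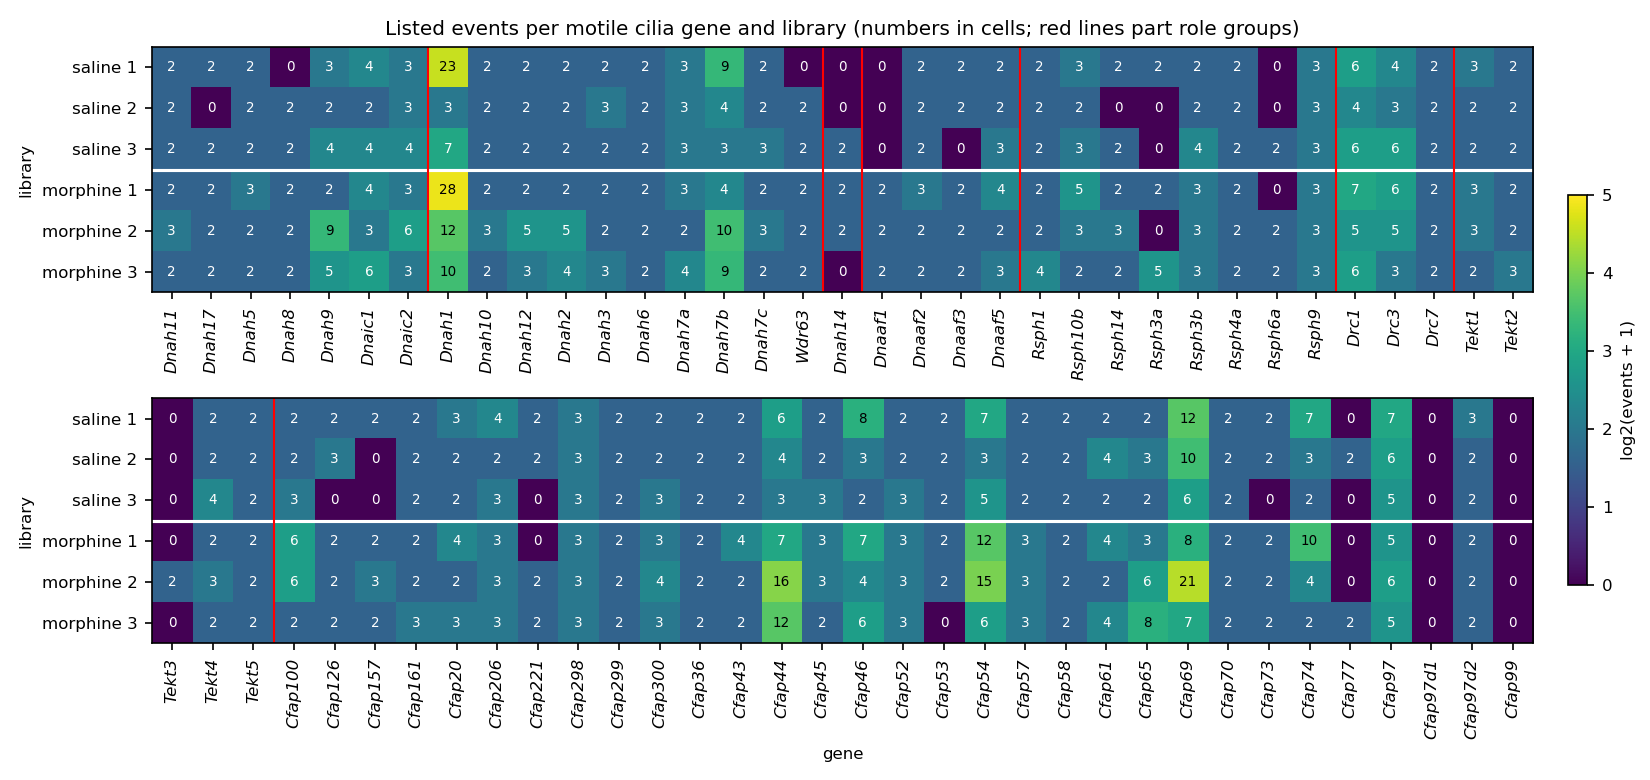
Events per gene (x axis) and library (y axis) for the 69 motile cilia genes, with the number in each cell and the colour on a log2(events + 1) scale; the white line parts saline from morphine and red lines part the role groups. Most cells hold 2, a few genes such as Dnah1, Cfap44, Cfap54 and Cfap69 hold up to 28, and Dnaaf1 is at 0 in all saline libraries and at 2 in all morphine libraries.

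The comparison per gene was tested with limma on log2(events + 1) over all 14757 genes listed in at least 3 libraries. With Benjamini-Hochberg adjustment, 65 genes (0.44%) were higher and 37 (0.251%) were lower in the morphine group at an adjusted p under 0.05. Of these 102 genes, 97 had the same number in all libraries of each group, so that the call rests on a lack of spread in small whole numbers. Of the same 102, 54 were listed in 1 group only and met the filter through that group, so that their p restates the listing. Of the 65 motile cilia genes fitted, 2 passed. Cfap57 was listed in every library and was higher in the morphine group, while Dnaaf1 is such a gene listed in 1 group only, and its p is no test. In direction alone and with no filter, 48 of the 67 listed motile cilia genes were higher in the morphine group, 5 were lower and 14 were equal, beside 39.8% higher and 30.3% lower over all 16154 listed genes. The median log2 difference of the 67 genes was 0.22, beside 0 over all listed genes.

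By non-overlap of the groups, the event numbers of 3 of the 67 listed genes were higher in the morphine group (Cfap44, Cfap57 and Dnaaf1) and none was lower, beside 1.81% and 0.966% of all genes. For 3 against 3 libraries the smallest two-sided p of an exact permutation test is 0.1, which non-overlap gives. For splicing events alone, 1 of the 29 genes with any was higher (Cfap54) and none was lower, beside 2.22% and 1.26% of all genes with a splicing event. Both shares rest on few genes.

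The dynein arm assembly factors act in the cytoplasm, where they fold and join the arm subunits before transport into the cilium. Dnaaf1 (chr8:119575235-119598454, plus strand) was listed with 0, 0 and 0 events in the saline and with 2, 2 and 2 in the morphine libraries. It was the only one of the 69 genes listed in all libraries of one group and in none of the other, beside 0.248% of all genes in this direction and 0.099% in the opposite one. This is a difference in listing, for which limma gives no separate test. It is the presence of a single assembled fragment, which reached from exon 1 to 6, from exon 3 to 6 and from exon 4 to 5 of 12 exons in morphine libraries 1 to 3. No morphine library had the last exons of the gene.

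The other assembly factors did not differ in this way. Dnaaf5 was listed with 2, 2 and 3 events in the saline and 4, 2 and 3 in the morphine libraries, and Dnaaf2 with 2 in all but morphine library 1, which had 3. Both genes were spanned from the first to the last exon in every library. Dnaaf3 was listed with 2 events in every library but saline library 3, where it was not listed, and its fragments covered 4 to 12 of 12 exons.

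The outer dynein arm is built on heavy chains, the motor subunits, and on intermediate chains that anchor the arm. Among the 7 genes of the outer arm, the heavy chain Dnah9 had 3, 2 and 4 events in the saline and 2, 9 and 5 in the morphine libraries, and the groups overlapped. Its outermost listed start and end spanned exon 1 to exon 6 and exon 26 of 69 in saline libraries 1 and 3. In the morphine libraries they spanned exon 1 to exon 64, 54 and 46. Saline library 2 held no pair of a start and an end of Dnah9 on the strand of the gene, so no comparison of the groups was made. The heavy chain Dnah11 showed no such pattern, with 65, 70 and 71 of 82 exons spanned in the saline and 51, 72 and 24 in the morphine libraries. The intermediate chain Dnaic2 was spanned whole in every library, with 3, 3 and 4 against 3, 6 and 3 events. Dnaic1, the other intermediate chain, had 4, 2 and 4 against 4, 3 and 6 events, and its retained intron chr4:41632289-41632388 of 100 bases was listed in saline library 1 and in all morphine libraries.

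Inner arms hold several heavy chains, each at its own place along the doublet, and Wdr63 is an intermediate chain of an inner arm. Dnah1 had the most events of the group, 23, 3 and 7 in the saline and 28, 12 and 10 in the morphine libraries, and the groups overlapped. Its numbers are uncertain, since an annotated antisense gene overlaps it and part of its starts and ends lay on the other strand. Its splicing events were all listed on the strand of the gene. A transcript start of Dnah1 at chr14:31272830 was listed in all morphine and no saline libraries and is not at an annotated first exon. Dnah7b had 9, 4 and 3 against 4, 10 and 9 events and Dnah7a 3, 3 and 3 against 3, 2 and 4, and both are uncertain, because Dnah7a, Dnah7b and Dnah7c are near-identical copies between which reads can be split.

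Wdr63 (chr3:146040526-146108130, minus strand) was not listed in saline library 1 and had 2 events in each other library. Of its 23 exons, 0, 5 and 8 were spanned in the saline and 9, 23 and 20 in the morphine libraries. The lowest morphine library thus exceeded the highest saline library by 1 exon, and by genomic length in place of exons the groups overlapped. In morphine library 2 the transcript ran from the first exon to the last, which no saline library reached.

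Exons spanned were counted as the exons of the longest coding transcript that lie between the outermost listed start and end on the strand of the gene, with 0 for a gene that was not listed. Exons between separate assembled transcripts of a gene thus count as spanned, and a further start or end can only widen the span. The measure could be read in every library for 57 of the 67 genes. By this measure 3 genes were higher in the morphine group without overlap (Dnaaf1, Wdr63 and Cfap100) and none was lower, beside 0.741% and 0.296% of all protein-coding genes. These shares are not like for like, as a gene spanned whole in every library cannot part the groups. In each library 80.2% to 82.3% of the listed protein-coding genes were spanned whole, against 41.3% to 56.2% of the motile cilia genes. Cfap100, a regulator of inner arms, was spanned over 15, 2 and 12 of 17 exons in the saline and over all 17 in each morphine library. For Dnaaf1 and Wdr63 the measure includes libraries in which the gene was not listed, and among genes listed in all 6 libraries Cfap100 alone remained.

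**Figure D3:**
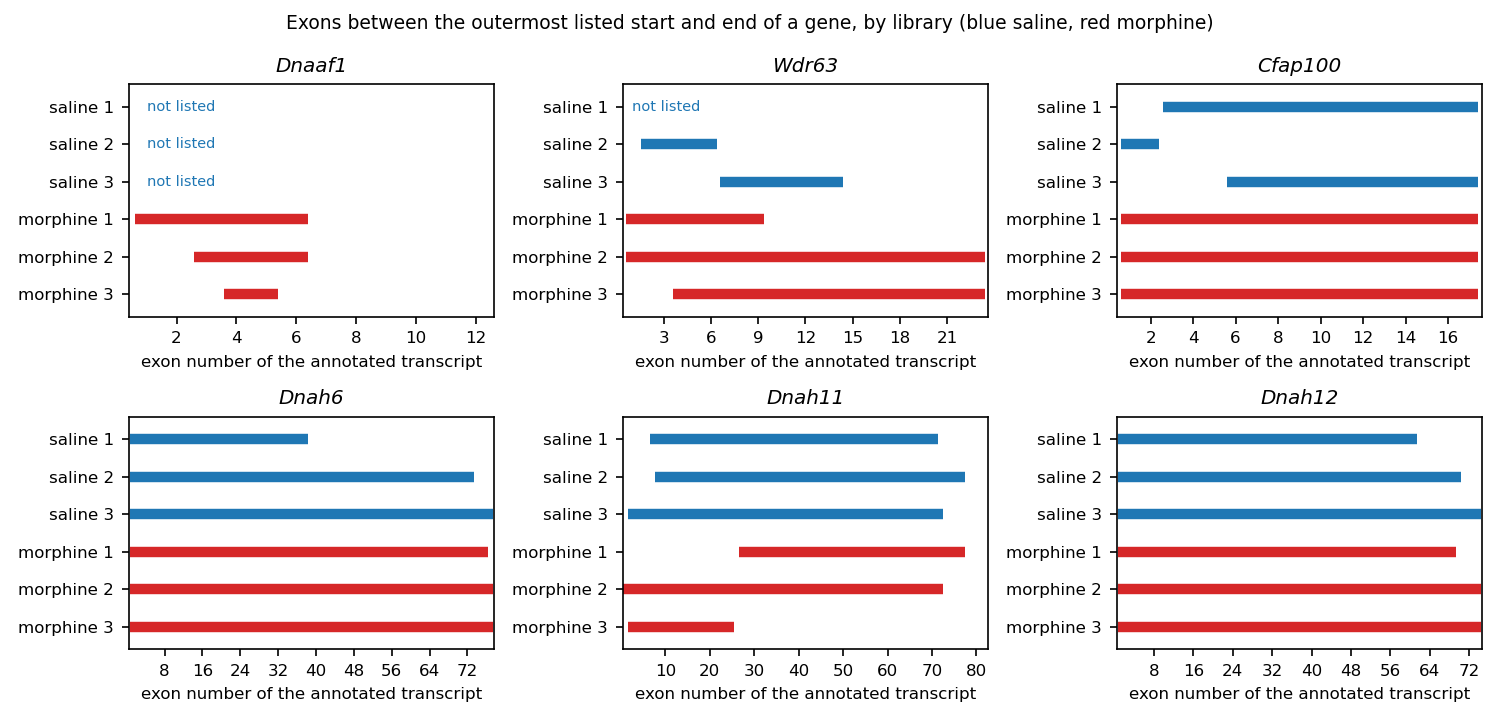
Exons between the outermost listed start and end (bars) of 6 genes in the saline (blue) and morphine (red) libraries, by exon number of the longest coding transcript (x axis, 1 to the last exon). Dnaaf1, Wdr63 and Cfap100 span more exons in every morphine library than in any saline library, while Dnah6, Dnah11 and Dnah12 overlap between the groups; these last 3 genes were picked after their values were seen.

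The heavy chain genes have 61 to 93 exons (median 78, 15 genes), against a median of 11.5 in the other 54 genes. None of the 15 was spanned from end to end in every library. Dnah6, an inner arm heavy chain, had 2 events in all 6 libraries and always began at exon 1, but ended at exon 38, 73 and 77 of 77 in the saline and at exon 76, 77 and 77 in the morphine libraries. The span of Dnah12 likewise began at exon 1 and ended at exon 61, 70 and 74 of 74 against 69, 74 and 74. Other heavy chains went the other way. Dnah2 was spanned over 65, 85 and 83 of 86 exons in the saline and 85, 17 and 11 in the morphine libraries. For Dnah10 the numbers were 79, 79 and 56 of 79 against 53, 17 and 79. These differences lie within the spread of the libraries. Dnah14, a heavy chain not placed in either arm here, was listed in 3 libraries only and never with more than 5 of its 84 exons.

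Of the 43 genes that were listed in all 6 libraries and could be read in each, 14 were spanned whole in every library. They were Rsph1, Rsph4a, Rsph9, Dnaic2, Drc1, Dnaaf2, Dnaaf5, Tekt5 and 6 Cfap genes (Cfap20, Cfap36, Cfap44, Cfap97, Cfap298 and Cfap300). In all 3 saline libraries 15 of the 43 were spanned whole, and in all 3 morphine libraries 20. Per library, 41.7%, 42.4% and 44.8% of the listed motile cilia genes were spanned whole in the saline group. In the morphine group the shares were 41.3%, 55.4% and 56.2%, so the groups overlapped and morphine library 1 was the lowest. Among all listed protein-coding genes the share was 80.2% to 82.3%.

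The ends of these genes matched the annotation less often than those of other genes. A listed start and a listed end at annotated first and last exons were found for 31 of 60, 26 of 59 and 29 of 58 listed motile cilia genes in the saline libraries (51.7%, 44.1% and 50%) and for 32 of 63, 38 of 65 and 40 of 64 in the morphine libraries (50.8%, 58.5% and 62.5%). Among all listed protein-coding genes the share was 81.3% to 84.3%. Morphine library 1 lay among the saline libraries, so the groups overlapped. The share of genes with only 2 events was 65%, 69.5% and 58.6% in the saline and 50.8%, 49.2% and 51.6% in the morphine libraries, which did not overlap, beside 44.1% to 47.3% of all protein-coding genes.

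**Figure D4:**
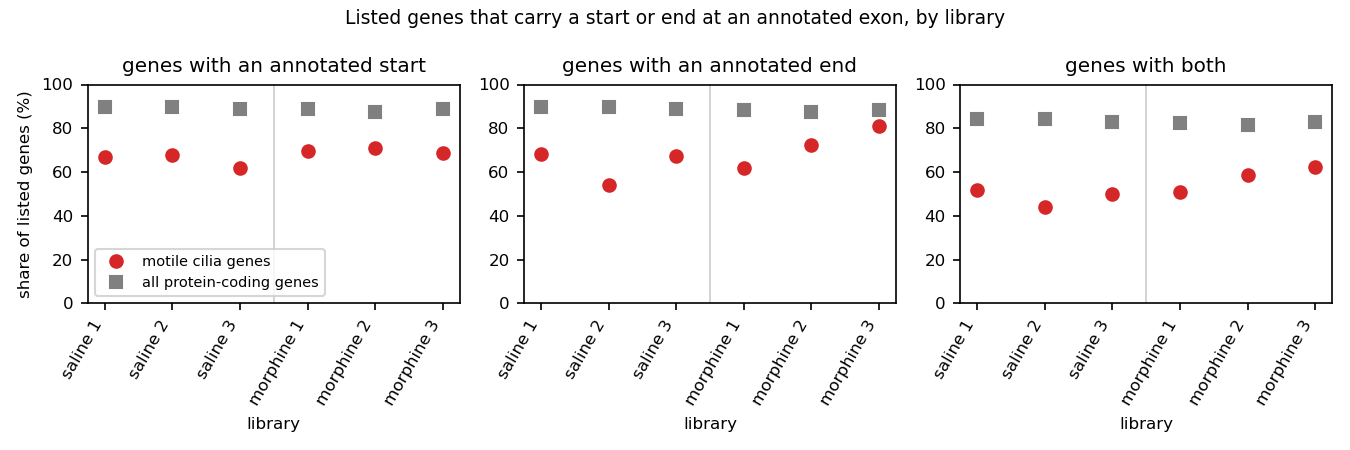
Share of listed genes (y axis, %) with a start at an annotated first exon, an end at an annotated last exon, or both, in each library (x axis), for the motile cilia genes (red circles) and all protein-coding genes (grey squares). The motile cilia genes lie below all protein-coding genes in every panel and library, and morphine library 3 comes nearest in annotated ends (81.2% against 88.4%).

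Few events of these genes recurred between libraries. Of the 683 events, 473 (69.3%) were listed in 1 library only and 44 (6.44%) in all 6, against 50.6% and 20.5% of all events. Among starts and ends, 42 of 504 were in all 6 libraries (8.33%, against 29.8% over all genes). Of the transcript starts in all 6 libraries 21 of 22 were at annotated first exons, against 13.4% of those found in 1 library. For ends the numbers were 20 of 20 and 19.2%.

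**Figure D5:**
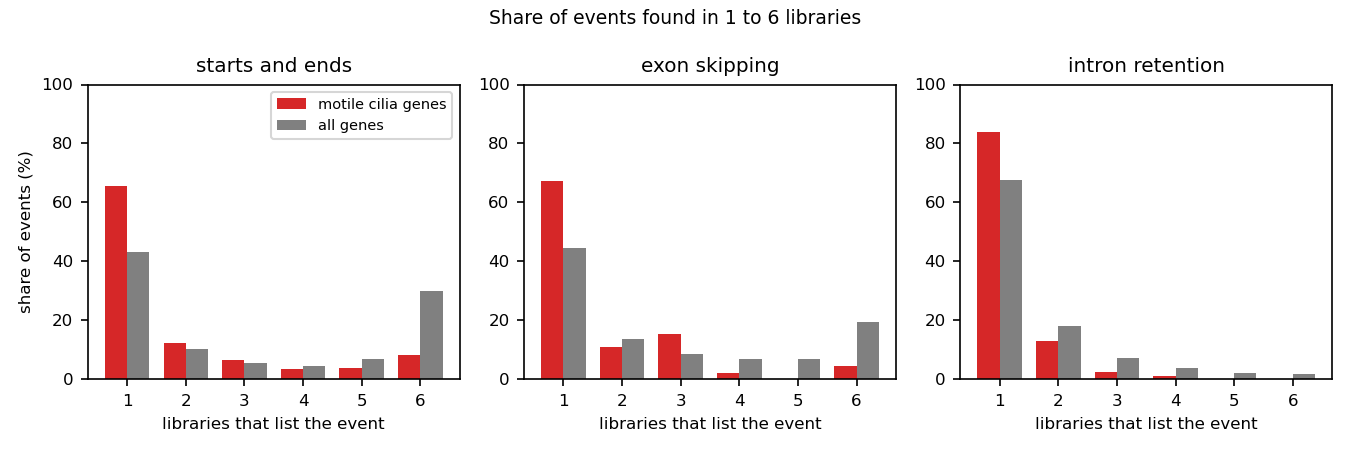
Share of events (y axis, %) listed in 1 to 6 libraries (x axis), for starts and ends, exon skipping and intron retention, in the motile cilia genes (red) and all genes (grey). Most events of the motile cilia genes are in 1 library in each panel (65.7%, 67.4% and 83.7%), a larger share than over all genes.

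Splicing events listed in all 6 libraries were found in 1 motile cilia gene only. Drc1, a central subunit of the nexin-dynein regulatory complex, skipped exon 2 and exon 4 of its 17 exons in every library of both groups. Both exons are annotated and lie within the coding sequence, and no annotated transcript joins the exons on either side. They are shown because they are the most reproducible splicing events of these genes. In the exon sequences below, on the plus strand of GRCm38 and taken from the GENCODE M21 transcript, all bases are in lower case. In the junction sequences, which join the last 20 bases of the upstream exon to the first 20 of the downstream exon, capitals mark the downstream exon.
Drc1 exon 2, chr5:30341664-30341751: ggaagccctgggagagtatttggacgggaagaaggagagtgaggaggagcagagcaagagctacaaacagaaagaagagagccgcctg
Drc1 junction of exons 1 and 3: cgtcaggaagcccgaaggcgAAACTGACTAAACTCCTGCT
Drc1 exon 4, chr5:30345491-30345674: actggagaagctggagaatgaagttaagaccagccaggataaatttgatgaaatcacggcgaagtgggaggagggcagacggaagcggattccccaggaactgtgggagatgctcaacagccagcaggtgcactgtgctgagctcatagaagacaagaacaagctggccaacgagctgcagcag
Drc1 junction of exons 3 and 5: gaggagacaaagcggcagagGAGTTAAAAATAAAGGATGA

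Exon 2 is 88 and exon 4 is 184 bases long, neither a multiple of 3. The full coding sequence of Drc1 has 753 codons. Read in frame without exon 2 it meets a stop after 53 codons, and without exon 4 after 120. Whether both exons are missing from the same molecule cannot be read from the lists. The number of Drc1 events, 6, 4 and 6 in the saline and 7, 5 and 6 in the morphine libraries, overlapped between the groups, and the gene was spanned whole in every library. Of the other members of the complex, Drc3 had 4, 3 and 6 against 6, 5 and 3 events and Drc7 had 2 in each library.

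The other splicing events were listed in at most 4 libraries. Exon 3 of 68 of Cfap54 (chr10:93066707-93066850, minus strand, 144 bases, a multiple of 3) was skipped in 4 libraries, saline 1 and 2 and morphine 2 and 3, and the skipping form is annotated. Over all motile cilia genes, 36 of 39 different single skipped exons were annotated exons (92.3%, against 80.8% over all genes). The junction that skips them was annotated for 14 of 39 (35.9%, against 72.7%), and the length was a multiple of 3 for 13 of 39 (33.3%, against 51.2%). Of 51 single retained introns, 43 were annotated introns (84.3%, against 91.2%).

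Events listed in all libraries of one group and in none of the other numbered 5 of the 683, all of them in the morphine group (0.732%, beside 0.382% of all events), and none was particular to the saline group (beside 0.278%). By class they were 3 of 249 transcript ends (beside 0.248% of all ends in this direction and 0.242% in the opposite one), 1 of 255 starts (beside 0.316% and 0.258%) and 1 of 46 skipping events (beside 0.606% and 0.53%). The skipping event was in Cfap44 and the start was the one in Dnah1. The ends were at chr5:5593853 in Cfap69, at chr5:120628412 in Cfap73 and at chr17:6921739 in Rsph3b, and all 3 are annotated. Rsph3b is uncertain, as it has a near-identical copy, Rsph3a. Cfap73, a regulator of inner arms, was not listed in saline library 3, and its transcripts stopped at exon 6 of 7 in the other saline libraries.

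Cfap44, a protein that tethers an inner arm to the doublet, had 6, 4 and 3 events in the saline and 7, 16 and 12 in the morphine libraries. The groups did not overlap, and the log2 difference was 1.22 with a standard error of 0.377, but the gene did not pass adjustment over all genes (limma, unadjusted p = 0.0273, adjusted p = 0.923). No exon of Cfap44 was skipped in the saline libraries, and 2, 4 and 2 skipping events were listed in the morphine libraries. The one common to all 3 was exon 24 of 35, which is shown because it is the only exon of these genes skipped in every library of one group and in none of the other. It is on the plus strand, with letters as above.
Cfap44 exon 24, chr16:44438997-44439171: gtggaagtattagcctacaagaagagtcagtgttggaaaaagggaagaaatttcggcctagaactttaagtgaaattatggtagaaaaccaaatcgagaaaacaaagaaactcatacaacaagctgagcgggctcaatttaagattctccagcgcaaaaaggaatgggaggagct
Cfap44 junction of exons 23 and 25: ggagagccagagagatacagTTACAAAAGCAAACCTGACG

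The exon has 175 bases, not a multiple of 3, and the junction of exons 23 and 25 is not annotated. Without it the reading frame of Cfap44, 1843 codons in full, meets a stop after 1103 codons. Cfap44 was spanned over all 35 exons in every library.

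Cfap57, a protein of the inner arm region, had 2 events in each saline and 3 in each morphine library, with a log2 difference of 0.42 and an adjusted p of 8.71e-08 in limma. The standard error of 0.002 reflects identical numbers within each group. Saline library 2 held no readable pair of a start and an end of Cfap57 on the strand of the gene, though its 2 events were counted. The third event was not the same in the morphine libraries: it was an additional transcript end in library 1, the skipped exon 22 of 23 in library 2 and an additional start in library 3. The call was lost in 3 of 13 alternatives: scaling to total events, identity by all coordinates, and leaving out entries on the other strand (adjusted p up to 0.888 in limma).

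Cfap54 and Cfap69 serve the central pair. Cfap54 had 7, 3 and 5 against 12, 15 and 6 events, which overlapped, and 1, 1 and 1 against 4, 8 and 2 splicing events, which did not. Cfap69 had 12, 10 and 6 against 8, 21 and 7 events, so morphine library 2 alone was high. Without Cfap69 the exon skipping events of all motile cilia genes were 8, 6 and 4 against 14, 19 and 16.

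Radial spoke genes differed little. Rsph9, a spoke head protein, had 3 events and all 5 exons in every library, and Rsph4a, another spoke head protein, had 2 events and all 6 exons. Rsph10b had 3, 2 and 3 against 5, 3 and 2 events and was spanned over 2 to 21 of its 21 exons. Rsph3b had 2, 2 and 4 against 3, 3 and 3 events. Every radial spoke gene overlapped between the groups in events and, where they could be read, in exons spanned.

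Tektin genes also overlapped between the groups. Tekt1 had 3, 2 and 2 against 3, 3 and 2 events and was spanned from exon 2 to 8 of 8 in every library. Tekt2 was spanned over 7, 2 and 7 of 11 exons in the saline and over 10, 10 and 4 in the morphine libraries. Tekt4 had 2, 2 and 4 against 2, 3 and 2 events, and Tekt3 was listed in morphine library 2 only.

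In a list of 45 further motile cilia genes (dynein docking, assembly, central pair and transcription factors), 44 symbols were found in the annotation. Of these, 38, 38 and 40 were listed in the saline and 41 in each morphine library. Their events numbered 131, 134 and 132 against 180, 151 and 138, without overlap, though 134 and 138 lie close. The median log2 difference of the 41 genes of this list that were fitted was 0, beside 0.22 for the motile cilia genes. The separation depends on Rfx3, with 7, 9 and 11 against 21, 11 and 13 events. Without this gene saline library 2 and morphine library 3 are level. Leaving out other single genes was not tested for this list. Like Dnaaf1, Nme8 was listed in the morphine group only (0, 0 and 0 against 2, 2 and 2 events). Its pass in limma is therefore no test, and no other gene of the list passed. At an unadjusted p under 0.05 in limma there were 2 of the 41 genes, Nme8 among them, and 4 when scaled to total events. Event numbers were higher without overlap for Nme8 and Zmynd10 (3, 3 and 3 against 9, 6 and 5) and lower for none, beside 1.81% and 0.966% of all genes. Exons spanned were higher without overlap for 3 genes (beside 0.741% of all protein-coding genes) and lower for 1 (beside 0.296%). The limit given above for these shares holds here too. The higher ones were Nme8, Iqcg (90.9% of its exons in each saline and 100% in each morphine library) and Rfx2, an RFX transcription factor (33.3%, 33.3% and 27.8% against 100%, 66.7% and 100%). The lower one was Spag17, a central pair protein (83.7%, 89.8% and 100% against 63.3%, 59.2% and 61.2%).

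Genes of intraflagellar transport and the BBSome, which serve primary and motile cilia alike, were counted in the same way. They were spanned almost whole, with a mean share of exons spanned of 96.6% to 100% per library. For the motile cilia genes it was 60.9% to 80.2%, so the lists are not alike. Their 29 genes had 142, 105 and 107 events in the saline and 136, 107 and 108 in the morphine libraries, with overlap. None of the 29 passed the adjusted p in limma, and 1 had an unadjusted p under 0.05. That is beside 3 of the 65 motile cilia genes and 3.12% of all genes fitted. Scaled to total events, 4 of the 29 had an unadjusted p under 0.05 in limma. Kif3a was higher in the morphine group without overlap (6, 6 and 9 against 19, 11 and 13 events), beside 1.81% of all genes. The 10 cytoplasmic dynein subunits, the relatives of the ciliary dyneins in all cells, had 37, 34 and 34 against 32, 37 and 30 events, and none passed, adjusted or not. The 12 ependymal markers had 28, 36 and 30 against 35, 37 and 36 events, with overlap and none past the threshold, adjusted or not. The choroid plexus markers had 22, 16 and 24 against 24, 23 and 20. The part of the amount of ventricle lining in each library in the numbers above was not tested, as the lists hold no level.

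The X-box is the site bound by RFX factors, which with Foxj1 switch on ciliary genes. It was searched by its consensus, with 0 to 3 bases in its centre and on both strands, in RefSeq promoters (GRCm38.p6) from 250 bases before to 50 after the start. A promoter was found for 57 of the 69 genes, and 12 of these (21.1%) held a match, against 2.45% of all 27025 genes with a promoter. The share was 31.2% in the 32 further motile cilia genes with a promoter, 12% in 25 intraflagellar transport and BBSome genes and 0 of 7 in cytoplasmic dynein subunits. A match is a description and not a measured site. It is shown for 4 genes described above, as the stretch of up to 20 bases on each side that lies before the RefSeq start, on the strand of the gene, with the match in capitals.
Cfap44, chr16:44394752-44394798, plus strand: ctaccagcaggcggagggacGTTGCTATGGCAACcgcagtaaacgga
Dnaic1, chr4:41569755-41569793, plus strand: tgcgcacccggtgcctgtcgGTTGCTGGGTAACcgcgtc
Dnaic2, chr11:114727366-114727418, plus strand: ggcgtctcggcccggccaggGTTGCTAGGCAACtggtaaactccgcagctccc
Tekt2, chr4:126325689-126325737, minus strand: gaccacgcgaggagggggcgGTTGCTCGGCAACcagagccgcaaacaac

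These matches begin 27 bases before the start of Cfap44, 19 before that of Dnaic1 and 33 before that of Dnaic2. The match of Tekt2 begins 29 bases before the nearer RefSeq start and 71 before another. Dnaaf2, Dnah10, Cfap45, Cfap58, Cfap99, Cfap298, Rsph3a and Rsph3b also held a match, and of these Cfap99 was listed in no library. No match was found in the promoters of Wdr63, Cfap57 and Cfap100, which says only that the letters are not in these windows.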

How the data were processed

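Total RNA of the NAc was sequenced by the authors in 3 saline and 3 morphine libraries, grouped by the treatment label, with replicate numbers in accession order as names only. Libraries were strand-specific, and reads were mapped with HISAT2 and assembled with StringTie. The program that wrote the event lists and the genome build are not given in the sources used here, and positions were checked against GENCODE M21 on GRCm38. The column named FPKM in the event lists deposited by the authors held only 0 and negative whole numbers and was not used. From the lncRNA table deposited by the authors, read counts and FPKM values (normalised to transcript length and mapped fragments) served only for relative depth, over values with at least 10 counts. Its log2 fold changes and adjusted p-values, the authors' own comparison, were not used. The number of per-sample columns left unmapped was 0.

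The list entries for the form with and the form without an exon or intron were counted as 1 event. Events in different libraries were the same when class, gene, strand and exon or intron boundaries matched, and for transcript starts and ends when the inner, splice-side coordinate matched. Events per gene were compared with limma 3.58.1 (intensity trend, pseudocount 1, genes listed in at least 3 libraries) in R 4.3.3, with Benjamini-Hochberg adjustment over all genes fitted. The script was tested on simulated data. Python 3.11.15 with pandas 2.3.3 was used for the rest. Assembly makes every number depend on depth and coverage, so a gene missing from a list may still be expressed.

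Genes were named by a rule: the 3 with the most events per role group, Wdr63, and every gene with an adjusted p under 0.05, without overlap in events or with an event particular to a group. Splicing events were named when found in at least 5 libraries. Cfap100, Dnah6, Dnah11, Dnah12, Tekt3, Tekt5, Rsph4a, Nme8, Iqcg, Rfx2, Spag17 and further single genes and events were named after their values were seen. The members, gene lists and tests were chosen with earlier results of these data known. The counts of exons spanned and of skipping events were added after seeing the data. In lists of cell type markers, those of astrocytes (5 of 5), oligodendrocytes (5 of 5), microglia (5 of 5) and endothelium (4 of 5) were listed in all 6 libraries.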

Additional observations from a re-analysis of the deposited data

How the results depend on the processing

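The alternatives were other pseudocounts, no filter, scaling to total events, depth as a covariate, identity by all coordinates, no entries on the other strand, genomic length in place of exons, genes listed in all libraries, and leaving out each library in turn. Scaled to total events, 0 genes in all and 0 motile cilia genes passed the adjusted p of limma, in place of 102 and 2 (Dnaaf1, listed in 1 group only, and Cfap57), since equal whole numbers then no longer stay equal. At an unadjusted p under 0.05 they were 613 and 3. By all coordinates, 1 motile cilia gene passed, and without entries on the other strand also 1. In both settings it was Dnaaf1, whose p is no test, while Cfap57 did not pass. With a library left out, 207 to 238 genes in all and 2 to 4 motile cilia genes passed, Dnaaf1 among them each time. The 4 came without saline library 3.

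Events particular to a group numbered 2 by all coordinates and 8 to 15 with a library left out, by construction more when fewer libraries must agree. By all coordinates the mean difference in events of motile cilia genes was 84.3 in place of 60, and 29 events in place of 44 were in all libraries. Genes without overlap in exons spanned, 3 in all, numbered 2 by genomic length, where Wdr63 overlapped, 1 among genes listed in all libraries and 5 to 8 with a library left out. The differences in genes listed, in events and in skipping kept their direction in every alternative run. Because the groups did not overlap in these sums, leaving out a library could not reverse them. Depth was a covariate in the limma fit only, not for these sums. With a library left out the differences lay at 4.5 to 5.5 genes, 49.3 to 75.3 events and 8.17 to 13.2 skipping events.

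No paired analysis was possible because the labels give no replicate numbers shared by the groups. The numbers of events are small, and depth limits which low genes were assembled.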
